A study of Homo sapiens with 8 samples.

Results

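Iron handling genes were followed in HepG2, an established human liver cancer line, with and without overexpression of EDN1. EDN1 is the gene of the vasoconstrictor peptide endothelin-1. The 10 genes were picked by symbol from the 24462 genes of the count table, and all 10 had a row: HAMP, TF, TFRC, TFR2, FTH1, FTL, SLC40A1, SLC11A2, HFE and IREB2. One group was labelled mock and the other EDN1 O/E, with 4 libraries each, called mock 1 to 4 and EDN1 1 to 4 here. All 8 came from cells grown in serum-containing medium with no further treatment, and the labels give neither the vector, nor whether a line is a clone, nor whether each library is a culture of its own. P-values therefore measure the spread between these libraries, which may be technical.

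Hepatocytes are the main source of hepcidin, the peptide encoded by HAMP, which binds the exporter ferroportin (SLC40A1) and has it degraded, so that less iron enters the blood. Transferrin (TF) carries iron in plasma and is taken up through the receptor TFRC, while ferritin, a shell of FTH1 and FTL subunits, stores iron inside the cell. HAMP transcription answers to BMP and SMAD signalling, in which HFE and TFR2 take part, and to IL-6 through STAT3. Iron regulatory proteins, of which IREB2 encodes one, bind hairpins called iron responsive elements in the transcripts of ferritin, TFRC and SLC40A1.

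Total counts ran from 8409173 to 14932385 per library, and 12577 genes passed the filter on low counts. EDN1 itself had 29, 9, 9 and 20 counts in mock 1 to 4 and 2803, 2284, 4764 and 4752 in EDN1 1 to 4, so each library matched its label. It rose by 7.92 on the log2 scale (standard error 0.41, adjusted p = 1.68e-05 by edgeR, quasi-likelihood, Benjamini-Hochberg over all tested genes). Earlier results of these data had set mock 4, EDN1 3 and EDN1 4 (the second library set) apart from the remaining 5 (the first library set). No clustering was run here. The labels name no batch. Because the same counts defined the sets, differences between them are given without a test, and the group comparison is also given within each set. The second set holds a lone mock library. All 11 hepatocyte markers had at least 10 counts in every library, with summed levels of 5695 to 7969 CPM (counts scaled by the library total) in mock and 5672 to 7815 CPM in EDN1. Of the 8 macrophage and leukocyte markers 2 had at least 10 counts in every library. PTPRC had at most 1 count and CD3E and MARCO 0, but CD68 had 60 to 164 and CD14 4 to 20. Of the erythroid markers HBG2 had 0 counts, HBA1 3 to 11 and HBB 0 to 34. The 8 macrophage and leukocyte markers summed to 414 to 762 CPM in mock and 379 to 771 CPM in EDN1, of which LYZ held most, with 4193 to 9943 counts. The 8 erythroid markers summed to 0.241 to 3.01 CPM in mock and 0.583 to 1.20 CPM in EDN1. The 6 biliary markers summed to 849 to 998 CPM in mock and 841 to 1218 CPM in EDN1, and 4 of them had at least 10 counts in every library.

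None of the iron handling genes passed the test between the groups: 0 of the 9 that could be tested had an adjusted p under 0.05, and over all tested genes 0.00795% did, which was EDN1 alone. DESeq2 and limma voom also called 0 of the 9. HAMP had the fold change farthest from 1 of the 9 and was the only member with an unadjusted p under 0.05 by edgeR's quasi-likelihood test, as 2.85% of all tested genes had (0.827% with a negative fold change). Log2 fold changes were negative in 6 and positive in 3, with a median of -0.12 beside 0.00 over all tested genes. Of all tested genes 49.7% had a negative one. In 0 of the 9 did the groups fail to overlap, against 2.04% of all tested genes. By library set, the 3 libraries of the second set lay wholly above or below the other 5 in FTL, FTH1, TF, TFRC and SLC11A2. This held for 23.2% of all tested genes, and the same counts had defined the sets.

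**Figure D1:**
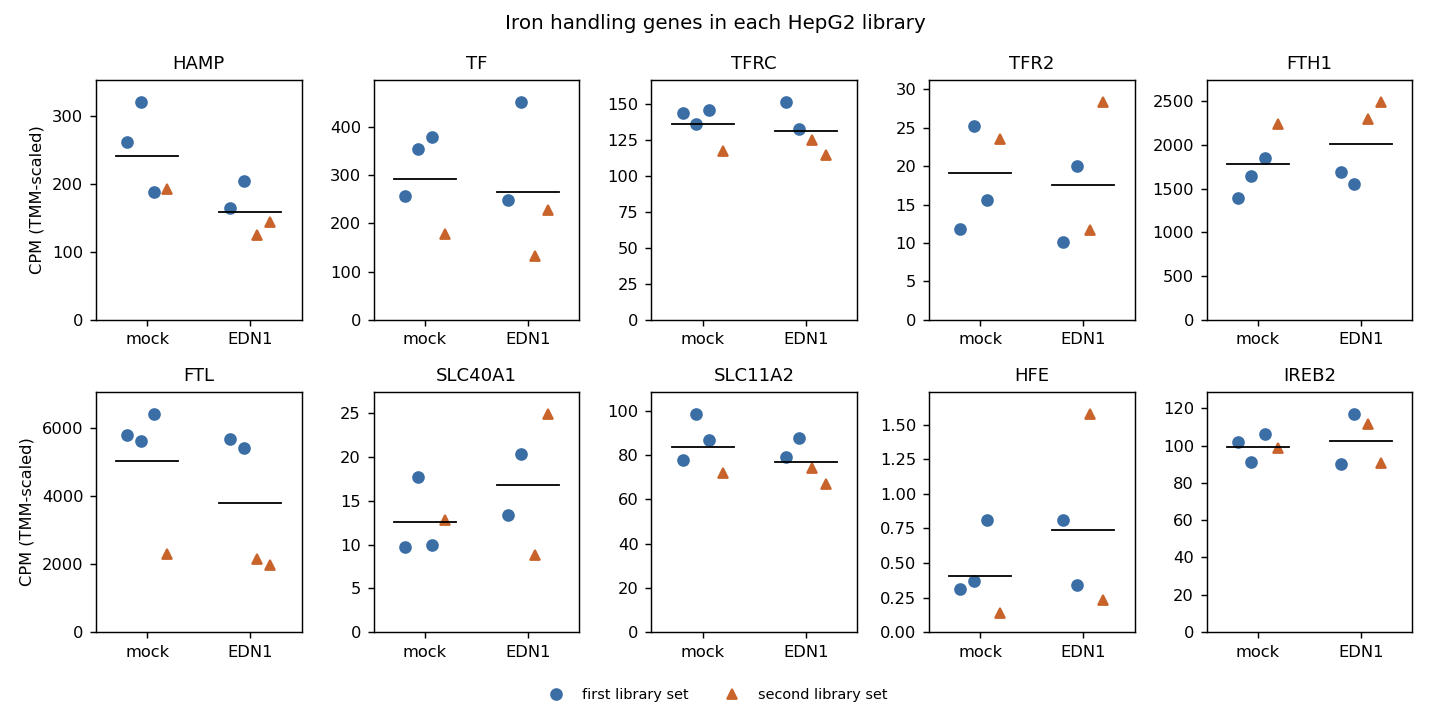
CPM on TMM-scaled library sizes (y axes, each from 0) of the 10 genes in the 4 mock and 4 EDN1 libraries, 1 point per library, with circles for the first library set, triangles for the second and a line at each group's mean. FTL shows the 3 triangles at 1965 to 2282 CPM and the 5 circles at 5411 to 6399 CPM, while in HAMP EDN1 2 lies above mock 3 and mock 4.

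HAMP was measured at 262, 321, 188 and 193 CPM (from here on, counts scaled by the TMM-adjusted library size) in mock 1 to 4 and at 164, 204, 124 and 145 CPM in EDN1 1 to 4. EDN1 1, 3 and 4 lay below every mock library, but EDN1 2 lay above mock 3 and mock 4, so the groups overlapped. Means were 241 ± 63.3 CPM in mock and 159 ± 34.1 CPM in EDN1 (SD, n = 4 each), a log2 fold change of -0.60 (standard error 0.22, 95% bounds -1.08 and -0.12), or 0.661-fold. The unadjusted p by edgeR's quasi-likelihood test was 0.0195, which placed HAMP at rank 144 of 12577 genes, and the Benjamini-Hochberg adjusted p was 1.00. Within the first library set the HAMP mean was 257 CPM in mock and 184 CPM in EDN1, a log2 fold change of -0.48. Within the second these were 193 and 134 CPM, a log2 fold change of -0.53. Both fold changes were smaller in size than the -0.60 over all libraries. HAMP also averaged lower in the second set, at 154 ± 35.3 CPM against 228 ± 63.5 CPM in the first (SD), though the sets overlapped. The log2 difference of HAMP, second minus first with the group as a term, was -0.44. A lower count in bulk RNA does not tell fewer cells making a transcript from less of it per cell.

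The stretch of DNA just before the HAMP start is shown because its best known control elements lie there, a BMP responsive element and a STAT site. The sequence is from RefSeq's promoter table (GRCh38.p14, chr19:35282378-35282527, plus strand), which is another build than the hg19 named for the counts. It holds the 150 bases before the start, with the BMP element core GGCGCC and the STAT element TTCNNNGAA in capitals, both searched on both strands.
HAMP: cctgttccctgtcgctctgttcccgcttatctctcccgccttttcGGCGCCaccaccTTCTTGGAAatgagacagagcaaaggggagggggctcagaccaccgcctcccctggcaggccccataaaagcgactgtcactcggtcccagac
The core begins 105 bases and the STAT element 93 bases before the start, and the matches do not overlap. Of 35116 promoter windows of this length, 11.7% held the core, 3.66% the STAT element and 0.168% both. Among the 8 members found in that table (FTH1 and TFR2 were not matched), 3 held the core in at least 1 window (HAMP, IREB2 and TF) and HAMP alone held the STAT element. These matches describe letters and are no measure of binding.

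Genes of BMP and SMAD control of hepcidin did not pass the test either, in 0 of 20 tested out of 24 listed. Log2 fold changes were positive in 6 and negative in 14, against 49.7% negative over all tested genes, with a median of -0.06. ID1, a transcriptional regulator that BMP signalling induces, was measured at 1833, 1738, 1573 and 1638 CPM in mock 1 to 4 and at 1248, 1423, 949 and 1264 CPM in EDN1 1 to 4. Groups did not overlap in 1 of the 20 tested genes of this list, against 2.04% of all tested genes. ID1 was that gene, with every EDN1 library below every mock library. Its log2 fold change was -0.47 (standard error 0.16), with -0.36 in the first library set alone and -0.58 in the second, and its adjusted p was 1.00 (edgeR, Benjamini-Hochberg). BMP6, the ligand that links liver iron to hepcidin, was at 112, 224, 139 and 112 CPM in mock and 132, 129, 78.8 and 139 CPM in EDN1, a log2 fold change of -0.29 (standard error 0.26). That value rested largely on mock 2: leaving out 1 library at a time moved it from -0.40 without mock 4 to -0.01 without mock 2, and it was -0.05 in the second library set alone. The inhibitory SMAD gene SMAD7, a feedback target of the same pathway, had a log2 fold change of -0.01 (standard error 0.21). GDF15, a stress-induced member of the TGF-beta family, ran from 10450 to 17551 CPM in mock and was at 5229, 9769, 5191 and 17064 CPM in EDN1 1 to 4. EDN1 4 thus lay within the mock range, and the log2 fold change of GDF15 was -0.55 (standard error 0.37), -0.81 in the first library set alone, -1.02 without EDN1 4 and -0.35 without EDN1 3. FKBP1A, which encodes a protein that binds BMP type I receptors, had a log2 fold change of -0.23 (standard error 0.26), with -0.39 without mock 4 and -0.01 without mock 2. Within the first and second library sets it was -0.09 and -0.01. All libraries of the second set lay below those of the first, with means of 275 and 458 CPM. Besides ID1, SPINT2 had an unadjusted p under 0.05 by edgeR in this list, as 2.85% of all tested genes had. SPINT2 is an inhibitor gene of the protease matriptase-2 and was chosen after its values were seen. Its mean was 0.780 CPM in mock and 1.86 CPM in EDN1, a log2 fold change of 1.27 (standard error 0.44). Its counts were low, at 5, 12, 3 and 13 in mock and 26, 12, 20 and 19 in EDN1. The groups overlapped, with mock 2 at 1.48 CPM above EDN1 2 at 1.36 CPM.

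Several upstream genes were too low to test. The hemojuvelin gene HJV, listed under its older symbol HFE2, never exceeded 2 counts in a library, nor did BMP2 and the erythroferrone gene, listed as FAM132B, exceed 4. TMPRSS6, which encodes matriptase-2, a protease that restrains hepcidin, had at most 15 counts. A count of 0 allows up to 3 counts, or 0.201 to 0.357 CPM depending on the library, counting error only.

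On the IL-6 side, 0 of 11 tested genes of 11 listed passed. Log2 fold changes were positive in 8 and negative in 3, against 49.7% negative over all tested genes, with a median of 0.09. The receptor subunit genes differed in sign, and both had an unadjusted p under 0.05 by edgeR's quasi-likelihood test, as 2.85% of all tested genes had. IL6R was at 149, 131, 170 and 166 CPM in mock and 193, 157, 224 and 213 CPM in EDN1, with a log2 fold change of 0.35 (standard error 0.16). IL6ST, the shared signalling subunit and chosen after its values were seen, was at 65.3, 55.7, 56.3 and 51.7 CPM in mock and 48.0, 53.0, 36.7 and 38.9 CPM in EDN1, with one of -0.38 (standard error 0.16). In each gene EDN1 2 was the EDN1 library that fell within the mock range. The liver transcription factor genes CEBPA and HNF4A, whose products act at the HAMP promoter, had log2 fold changes of 0.24 (standard error 0.25) and 0.09 (standard error 0.14). The value for CEBPA was 0.05 without EDN1 3 and 0.38 without EDN1 4.

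**Figure D2:**
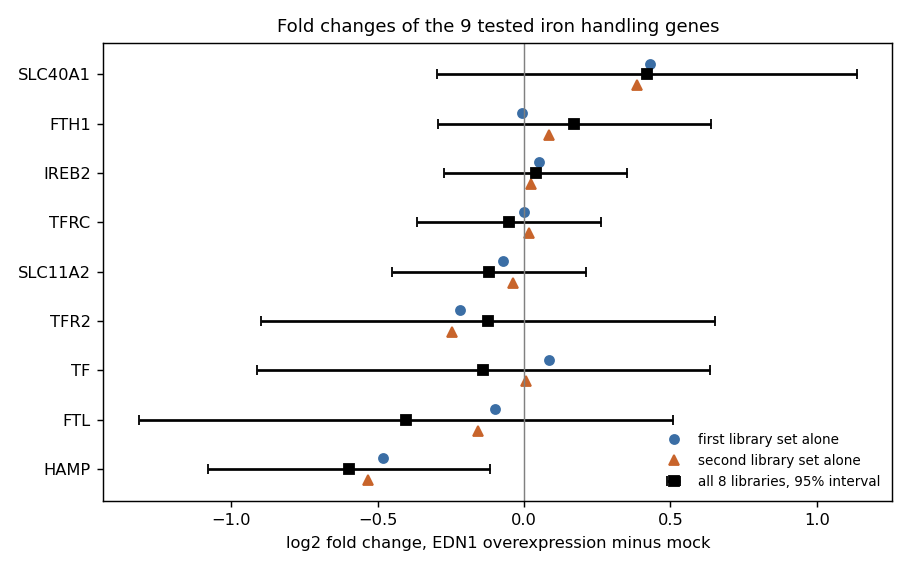
Log2 fold changes of EDN1 overexpression against mock (x axis) for the 9 tested genes, with squares and 95% intervals from all 8 libraries, circles from the first library set alone and triangles from the second alone. HAMP at -0.60 has the only interval that lies wholly below 0 before adjustment, and FTL moves from -0.40 over all libraries to -0.10 and -0.16 within the sets.

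TFR2 encodes a second transferrin receptor, which in hepatocytes takes part in iron sensing more than in iron uptake. It was measured at 11.9, 25.2, 15.6 and 23.6 CPM in mock 1 to 4 and at 10.2, 20.1, 11.7 and 28.4 CPM in EDN1 1 to 4. The high libraries were mock 2, mock 4, EDN1 2 and EDN1 4, in both groups alike. Its log2 fold change was -0.12 (standard error 0.35, 95% bounds -0.90 and 0.65), so a difference of up to 0.537-fold or 1.57-fold lies within the interval. HFE, an MHC class I-like gene whose protein binds TFRC, had 4, 3, 7 and 2 counts in mock and 10, 3, 18 and 2 counts in EDN1. It did not pass the filter on low counts and was not tested. Several of its libraries stood at or below 3 counts, so no difference was detectable at this depth.

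TF was at 257, 354, 378 and 178 CPM in mock 1 to 4 and at 247, 452, 132 and 228 CPM in EDN1 1 to 4. EDN1 2 was the highest and EDN1 3 the lowest of all 8, and TF had the largest ratio of highest to lowest library among the 9 tested genes, 3.42. The log2 fold change was -0.14 (standard error 0.35, 95% bounds -0.91 and 0.63), which became 0.09 in the first library set alone and 0.01 in the second. It ran from -0.53 without EDN1 2 to 0.09 without EDN1 3, so these data give TF no direction between the groups. By library set TF averaged 337 ± 85.9 CPM in the first (SD, n = 5) and 179 ± 48.0 CPM in the second (SD, n = 3), with all 3 libraries of the second set below the other 5. Its log2 difference, second minus first with the group as a term, was -0.93.

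TFRC, the receptor that brings iron-loaded transferrin into the cell, was among the steadiest of these genes. It was at 144, 136, 146 and 118 CPM in mock and at 152, 132, 125 and 115 CPM in EDN1, and its highest library was 1.32 times its lowest. The log2 fold change was -0.05 (standard error 0.14), with a 95% interval of -0.37 to 0.26 that corresponds to 0.776-fold to 1.20-fold. Here too the second library set lay below the first, at 119 ± 5.40 against 142 ± 7.75 CPM (SD, n = 3 and 5). SLC11A2 encodes DMT1, which moves ferrous iron out of endosomes after uptake. It was at 77.6, 98.7, 86.7 and 72.0 CPM in mock and at 79.1, 87.7, 74.3 and 67.0 CPM in EDN1, a log2 fold change of -0.12 (standard error 0.15, 95% bounds -0.45 and 0.21). The second set again held its 3 lowest libraries, with a log2 difference between the sets of -0.26, as in TFRC.

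IREB2 encodes iron regulatory protein 2, which is degraded when iron is plentiful, and so is set mostly at the protein level. The transcript was at 102, 91.3, 106 and 98.6 CPM in mock and at 90.0, 117, 112 and 90.4 CPM in EDN1, and varied least of the 9, by 1.30 times between its highest and lowest library. Its log2 fold change was 0.04 (standard error 0.14, 95% bounds -0.27 and 0.35), and the library sets averaged 101 and 100.2 CPM.

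Ferritin transcripts divided the libraries along the library sets, in opposite directions for the light and the heavy subunit. FTL, the light subunit, was at 5772, 5615, 6399 and 2282 CPM in mock 1 to 4 and at 5657, 5411, 2157 and 1965 CPM in EDN1 1 to 4. Mock 4, EDN1 3 and EDN1 4 were the low ones, with no value between 2282 and 5411 CPM. The mean was 5771 ± 375 CPM in the first set (SD, n = 5) and 2134 ± 160 CPM in the second (SD, n = 3), and the log2 difference was -1.40 with the group as a term, or 2.65-fold lower in the second set. Of all tested genes 1.69% had a difference between the sets at or below that of FTL.

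FTH1, the heavy subunit, which oxidises iron for storage, went the other way between the sets. It was at 1389, 1640, 1850 and 2239 CPM in mock 1 to 4 and at 1688, 1547, 2291 and 2494 CPM in EDN1 1 to 4. The 3 libraries with low FTL were the 3 with the highest FTH1. Its set means were 1623 ± 171 CPM (SD, n = 5) and 2341 ± 135 CPM (SD, n = 3), a log2 difference of 0.52, and 9.94% of all tested genes had one at or above it. Leaving out each library in turn gave 0.48 to 0.58 for FTH1 and -1.43 to -1.37 for FTL.

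The ratio of FTL counts to FTH1 counts within a library needs no scaling between libraries. It is not corrected for gene length and was chosen after the data were seen. In mock 1 to 3 the ratio was 4.16, 3.42 and 3.46 and in EDN1 1 and 2 it was 3.35 and 3.50, but 1.02 in mock 4, 0.941 in EDN1 3 and 0.788 in EDN1 4. Its mean was 3.58 ± 0.328 in the first set and 0.916 ± 0.118 in the second (SD, n = 5 and 3), 3.91 times lower in the second. Both subunits summed took up 0.698% to 0.815% of all counts in the first set and 0.423% to 0.453% in the second. Between the groups the ratio was 3.01 ± 1.37 in mock and 2.14 ± 1.48 in EDN1 (SD, n = 4), which did not differ beyond the spread between libraries (two-sided p = 0.229 by an exact permutation test that can go no lower than 0.0286). The second set holds 1 mock and 2 EDN1 libraries, and within the sets the difference was -0.26 and -0.15.

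**Figure D3:**
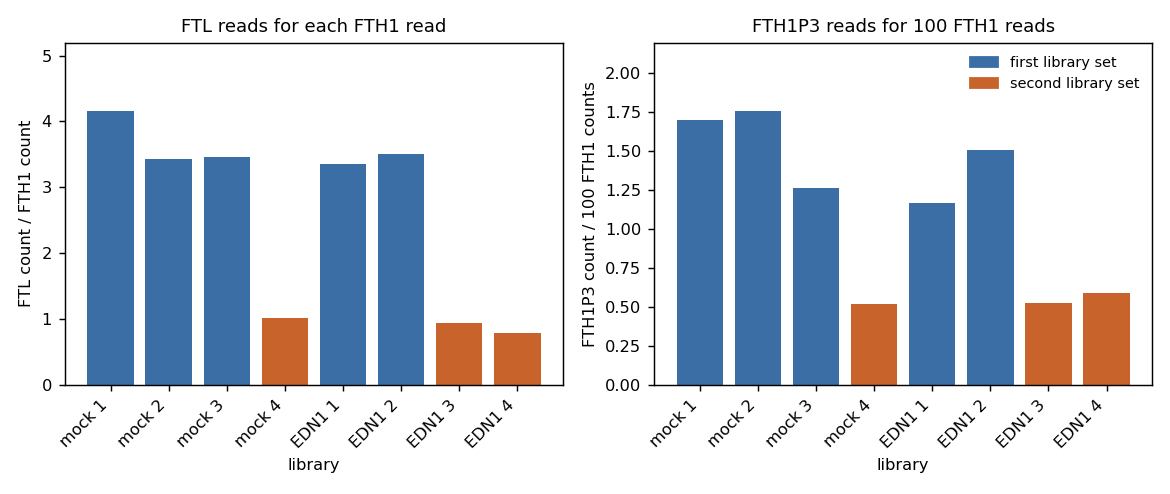
Left, FTL counts per FTH1 count, and right, FTH1P3 counts per 100 FTH1 counts (y axes from 0), 1 bar per library, coloured by library set. Mock 4, EDN1 3 and EDN1 4 have ratios of 0.788 to 1.02 on the left, against 3.35 to 4.16 in the other 5, and are also the 3 lowest on the right.

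Ferritin genes have processed copies elsewhere in the genome, and reads of FTH1 can be shared with them depending on how the authors counted. In the table FTH1P3 had 302, 233, 201 and 168 counts in mock 1 to 4 and 242, 205, 137 and 127 in EDN1 1 to 4, while FTH1P18, FTHL17 and FTLP10 had 0 in every library. FTH1P3 thus held 1.17 to 1.76 counts for every 100 of FTH1 in the first set and 0.519 to 0.588 in the second. With FTH1 and FTH1P3 summed, an alternative chosen after seeing the data, the log2 difference between the sets was 0.51. Levels of FTH1 and FTH1P3 are uncertain to the extent that the counting split their reads.

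For the EDN1 comparison, FTL had a log2 fold change of -0.40 (standard error 0.41, 95% bounds -1.31 and 0.51) and FTH1 one of 0.17 (standard error 0.21, 95% bounds -0.30 and 0.64). Within the first and second library sets these were -0.10 and -0.16 for FTL and -0.01 and 0.09 for FTH1. Both ferritin fold changes were thus nearer to 0 within either set than over all 8 libraries.

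SLC40A1 encodes ferroportin, the exporter that hepcidin acts on. It was at 9.75, 17.8, 9.97 and 12.8 CPM in mock 1 to 4 and at 13.3, 20.3, 8.77 and 24.9 CPM in EDN1 1 to 4. EDN1 3 was the lowest and EDN1 4 the highest of all 8. The log2 fold change was 0.42 (standard error 0.32, 95% bounds -0.30 and 1.14), the highest of the 9 tested genes, and it was 0.17 without EDN1 4 and 0.64 without EDN1 3. Within the first and second library sets it was 0.43 and 0.38. Unlike ferritin, its set means of 14.2 and 15.5 CPM differed by less than the spread within each set.

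Matches to the iron responsive element are shown because the iron regulatory proteins bind such hairpins. A further reason is that FTH1 and FTL, which diverged between the library sets, both hold a match. UTRs of GENCODE release 29 basic protein-coding transcripts (GRCh38) were searched on the transcript strand for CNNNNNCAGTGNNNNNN, a bulged C, 5 stem bases, a loop of 6 bases and 5 bases that pair with the stem. Of 19652 genes searched, 159 (0.809%) held a match, among them 5 of the 10 members. The pattern is fixed, so a transcript without a match, such as that of SLC11A2, is not shown to lack an element. Each line gives 29 bases with the loop in capitals, and T stands for the U of the RNA.
FTH1: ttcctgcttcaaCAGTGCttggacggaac
FTL: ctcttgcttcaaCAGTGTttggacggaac
SLC40A1: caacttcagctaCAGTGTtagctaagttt
TFRC element 1: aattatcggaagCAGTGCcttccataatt
TFRC element 2: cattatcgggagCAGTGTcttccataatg
TFRC element 3: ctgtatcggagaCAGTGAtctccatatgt
TFRC element 4: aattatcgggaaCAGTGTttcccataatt
TF: tgaatgcattttCAGTGAaagattataac
Those of FTH1 (chr11:61967574-61967602, minus strand), FTL (chr19:48965335-48965363, plus strand) and SLC40A1 (chr2:189580661-189580689, minus strand) lie in the 5 prime UTR, where binding blocks translation. The 4 TFRC matches lie in its 3 prime UTR (minus strand, from chr3:196050979-196051007 to chr3:196050463-196050491), where binding protects the transcript from decay. The match in the 3 prime UTR of TF (chr3:133792673-133792701, plus strand) is a match of letters and pairing only. Transcript counts do not measure binding or translation.

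Beyond the members, 0 genes of the remaining iron lists passed the test between the groups by edgeR, DESeq2 or limma voom. An unadjusted p under 0.05 by edgeR was held by 1 of the 14 uptake, storage and export partners, STEAP2. It was held by 0 of the 9 iron regulatory, 20 heme and 28 mitochondrial genes, and by 2.85% of all tested genes. Iron regulatory proteins and other transcripts with iron responsive elements had 5 positive and 4 negative log2 fold changes in 9 tested of 10 listed, with a median of 0.02. ACO1, which encodes iron regulatory protein 1, had a log2 fold change of 0.17 (standard error 0.20), and FBXL5, the iron sensor that has IREB2 degraded, one of -0.06 (standard error 0.22). SKP1, a subunit of the same ubiquitin ligase, stood at 0.02 (standard error 0.21). Groups did not overlap in 1 of the 9 tested genes, against 2.04% of all tested genes. That gene was EPAS1, which encodes HIF-2 alpha, at 108 to 123 CPM in mock and 85.1 to 105 CPM in EDN1. Its log2 fold change was -0.21 (standard error 0.13).

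Partners in iron uptake, storage and export had 6 positive and 8 negative log2 fold changes in 14 tested of 23 listed, with a median of -0.06. The iron chaperone genes PCBP1 and PCBP2, which deliver iron to ferritin, had log2 fold changes of 0.02 (standard error 0.13) and -0.08 (standard error 0.17). SLC39A14, a transporter of iron that is not bound to transferrin, had one of -0.21 (standard error 0.15), and NCOA4, the receptor for ferritin breakdown, one of 0.06 (standard error 0.13). STEAP3, which reduces iron in endosomes, stood at 0.01 (standard error 0.31), and CP, the plasma ferroxidase ceruloplasmin, at -0.36 (standard error 0.55), with -0.91 without EDN1 4 and -0.09 without EDN1 3. Groups did not overlap in 1 of the 14 tested genes, against 2.04% of all tested genes. That gene was STEAP2, a reductase gene related to STEAP3 and named after its values were seen. STEAP2 was at 1.97 to 2.22 CPM in mock and 0.702 to 1.62 CPM in EDN1, from only 17 to 32 and 8 to 14 counts. Its log2 fold change was -0.93 (standard error 0.31).

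Heme genes had positive log2 fold changes in 16 of 20 tested and negative ones in 4, against 49.7% negative over all tested genes. Their median was 0.07, with 0 past the test. HMOX1, the inducible enzyme that frees iron from heme, was at 178, 155, 159 and 246 CPM in mock and at 220, 179, 329 and 163 CPM in EDN1, a log2 fold change of 0.27 (standard error 0.24) that was 0.02 without EDN1 3 and 0.44 without mock 4. BLVRA, which acts on the next product of heme breakdown, had one of 0.16 (standard error 0.14), and HP, the haemoglobin-binding haptoglobin, one of 0.09 (standard error 0.21). Genes of mitochondrial iron and iron-sulfur assembly had 14 positive and 14 negative log2 fold changes in 28 tested. Among them GLRX5 stood at 0.03 (standard error 0.18), HSPA9 at -0.20 (standard error 0.19) and MMS19 at -0.13 (standard error 0.15).

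Between the library sets, 5 of the 9 members did not overlap, 1 higher and 4 lower in the second set, against 9.83% higher and 13.4% lower over all tested genes. In the iron regulatory list 3 of 9 were higher in the second set and 0 lower. These were ACO1, at 72.4 to 76.5 CPM against 48.0 to 56.3 CPM, with SKP1 and HIF1A, the latter named after its values were seen. In the heme list 4 of 20 were higher and 3 lower, and the lower ones included SLC48A1 and HPX, named after their values were seen. SLC48A1, a heme transporter gene, was at 39.4 to 63.2 CPM in the first set and 10.4 to 16.2 CPM in the second (log2 difference -1.91). Mitochondrial iron and iron-sulfur genes were higher in 1 of 28 and lower in 7 of 28. Among the 7, SLC25A28, the mitochondrial iron importer mitoferrin 2 and also named after its values were seen, was at 17.0 to 21.0 CPM in the first set and 4.91 to 6.35 CPM in the second. In the BMP and SMAD list 2 of 20 were higher and 1 lower, and in the IL-6 list 0 of 11 were higher and 2 lower. Of the partners in iron uptake, storage and export 2 of 14 were higher and 1 lower. Among the higher ones was NCOA4, with a log2 difference of 0.16. What the sets stand for was not tested.

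**Figure D4:**
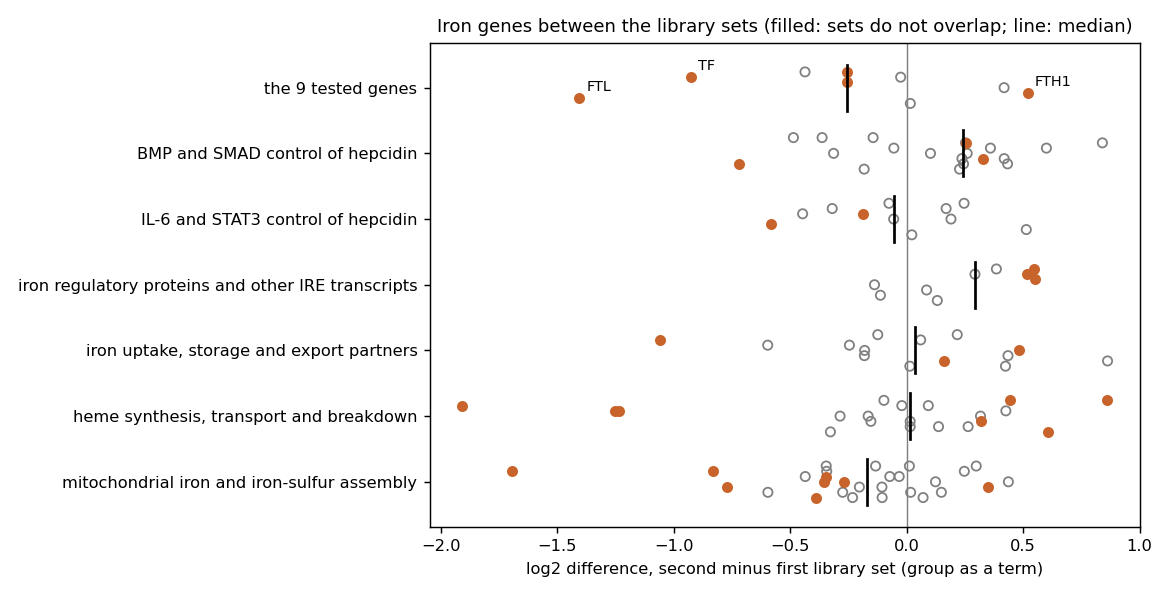
Log2 differences between the library sets, second minus first with the group as a term (x axis), for the tested genes of each iron list (rows), with filled points where the sets do not overlap and a line at each list's median. FTL at -1.40 and FTH1 at 0.52 are the lowest and highest of the 9 tested members, and the heme and mitochondrial lists each hold a gene lower than FTL.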

How the data were processed

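RNA of HepG2 cells was read as 3 prime tags (Lexogen QuantSeq, per the labels' protocols), so a count does not grow with transcript length. The deposited values are raw read counts per gene, 1 column per library, as the authors made them. Bowtie2, edgeR and hg19 appear, without roles, in the submitters' processing notes. Their versions and the counting tool, and whether it used strand, are not stated in the labels. The gene length column, deposited by the authors, was not used in any test.

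Groups and replicate numbers came from the titles. Rows of 1 symbol were summed (288 symbols, 0 of them members), except MARCH1 and MARCH2, leaving 24462 genes. Genes were filtered with filterByExpr (minimum count 10), scaled by TMM and tested in edgeR 4.0.16 under R 4.3.3 by quasi-likelihood on all 8 libraries, with no term beside the group. P-values were adjusted by Benjamini-Hochberg over 12577 genes, at a threshold of 0.05. A standard error is the absolute log2 fold change over the root of its F value. The fit was tested on simulated data that held no library sets, so that test does not cover their effect on the fit. Total counts of 8409173 to 14932385 set the precision, and no pair of libraries agreed within sampling noise (chi-square over its degrees of freedom was 6.38 to 93.3).

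Members, gene lists and library sets were chosen with earlier results of these data known. Named genes are the members, the 3 genes of each list with the highest mean CPM, 11 genes fixed by role, and any list gene past the threshold; others are named as chosen after their values were seen. Alternatives were other scalings, no filter, DESeq2 1.42.0, limma voom 3.58.1, the replicate number as a block, the library set as a term, each set alone, rows as deposited and leaving out each library. Values of some list genes are not reported here.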

Additional observations from a re-analysis of the deposited data

How the results depend on the processing

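Over 171 refits of the 9 members, 0 gave an adjusted p under 0.05 with any tool, and 17 changed a sign, all in genes that were not called. Genes called between the groups numbered 1 (EDN1) in every setting, each library left out included, except DESeq2, which called 3 (EDN1, LGI1 and TMSB4X). Fitted with the library set, the log2 fold changes of TF and TFRC were 0.0606 and 0.0115, opposite in sign to -0.14 and -0.05. In the first set alone they were 0.0858 for TF, 0.00137 for TFRC and -0.00778 for FTH1, and in the second set alone 0.00670 for TF and 0.0183 for TFRC. Leaving out 1 library gave -0.525 to 0.0852 for TF, -0.130 to 0.00658 for TFRC, -0.454 to 0.0704 for TFR2 and -0.0313 to 0.0969 for IREB2. HAMP ran from -0.74 to -0.43 with each library left out, and its unadjusted p from 0.00846 to 0.0655 (edgeR's quasi-likelihood test). By the same test its unadjusted p was 0.0790 in the first set alone and 0.0176 with the library set as a term, at -0.48 and -0.50. With the replicate number as a block the unadjusted p was 0.00174. The cause of these shifts was not tested.

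The number of genes with an unadjusted p under 0.05, the background for HAMP, was 359 and moved when single libraries were left out. It was 184, 220 and 229 without EDN1 3, mock 3 and EDN1 1, and 576, 641 and 738 when mock 4, EDN1 2 or EDN1 4 was left out. It moved to 570 without the low count filter and to 45 in the second set alone. With the replicate number as a block 1 gene was called and 550 had such a p, and HAMP stood at -0.59. Same-numbered libraries deviated together with correlations of 0.48, 0.15, -0.15 and 0.53. Of the mock libraries 1 and 4 correlated best with their own number. The library sets were not removed first, and mock 3 and EDN1 3 lie in different sets. The correlations thus cannot decide on pairing, and the numbers are not taken as pairs. Members that did not overlap between the library sets numbered 5, and 5 to 6 with each library left out. At this depth HFE, HJV, BMP2 and TMPRSS6 could not be compared.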

Other observations

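Several iron genes varied within both groups otherwise than by library set, though not all in the same libraries. This was seen after the values were known and was not tested. TFR2 was at 20.1 to 28.4 CPM in mock 2, mock 4, EDN1 2 and EDN1 4 and at 10.2 to 15.6 CPM in the other 4 libraries. CP was at 8.90, 40.0, 26.2 and 31.9 CPM in mock 1 to 4 and at 8.78, 26.1, 8.07 and 40.9 CPM in EDN1 1 to 4, so the 3 libraries with the lowest CP are also the 3 with the lowest TFR2. SLC40A1 had its 3 highest values in EDN1 4, EDN1 2 and mock 2, but mock 4 at 12.8 CPM lay below EDN1 1 at 13.3 CPM. GDF15 was at 15185 to 17551 CPM in mock 2, mock 4 and EDN1 4 and at 5191 to 11351 CPM in the other libraries. Among those others EDN1 2, high in TFR2, was at 9769 CPM, below mock 1 and mock 3.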
